A study of Mus musculus with 8 samples.

Results

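A set of 10 regulators of mammary lineage and stemness was examined in cells of the mouse mammary carcinoma line 4T1 that had been sorted by SCA1: Elf5, Ehf, Elf3, Gata3, Trp63, Id4, Sox9, Klf4, Klf5 and Bmi1. The members were fixed by name and matched by symbol to their Ensembl identifiers, and all 10 were among the 16341 genes counted. RNA of 4T1-Sca1+ and 4T1-Sca1- cells was sequenced, with 4 libraries of each, and the labels give no treatment or engineered allele. The cells were stained with a phycoerythrin-coupled antibody to SCA1, the surface protein encoded by Ly6a, and separated on magnetic columns. The source label and the study give the parental 4T1 line as their origin, but tumor is named in the labels' staining protocol, and a CD45-negative gate in the sort label. The groups are therefore named only by the marker. They come from 1 cell line, and separate sorts are not stated for the replicates, so the p-values measure the spread between these libraries, which may be technical.

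The mammary duct has an inner luminal layer and an outer basal, myoepithelial layer. GATA3 maintains luminal identity, and ELF5 drives the secretory alveolar branch of the luminal lineage. ELF3 and EHF are epithelial ETS factors related to ELF5. In the basal layer TP63 (Trp63) is the defining factor, and ID4, which binds basic helix-loop-helix factors without contacting DNA itself, is also most abundant there. SOX9 marks luminal progenitors and helps to confer stem cell properties, KLF4 and KLF5 are zinc finger factors of pluripotency and of epithelial growth, and BMI1 is a Polycomb repressor that supports self-renewal.

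Of the 10 factors, Id4 and Gata3 were higher in 4T1-Sca1+ cells, and Elf3, Sox9, Klf4 and Klf5 were lower. Ehf and Bmi1 did not pass the test, and Trp63 and Elf5 had too few counts to be tested. Id4 was 3.35-fold higher, whereas the log2 fold changes of the other called factors lay between -0.37 and 0.32. A gene was called at a Benjamini-Hochberg adjusted p below 0.05 in edgeR's quasi-likelihood test over 11717 genes. At that threshold 31.3% of all genes tested were higher, 30.2% were lower and 61.5% were called in either direction, against 2 higher and 4 lower among the 8 factors tested. The median log2 fold change (4T1-Sca1+ over 4T1-Sca1-) of the tested factors was -0.15, against 0.0074 for all genes tested. The lowest count of a tested factor in any library was 38, for Id4, so each passed the low-count filter in both groups.

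**Figure D1:**
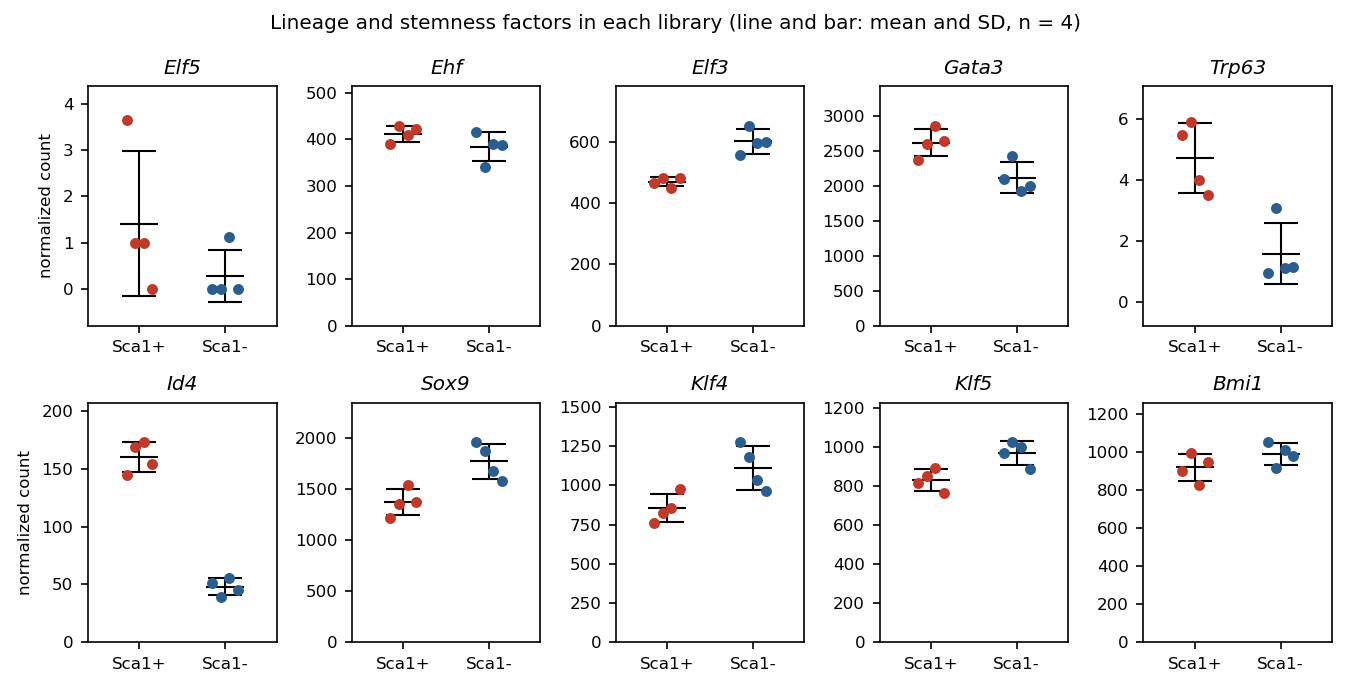
Normalized count (count divided by the library's size factor, y axis, linear and starting at or just below 0) of each of the 10 factors in the 4 Sca1+ (red) and 4 Sca1- (blue) libraries, with the mean and SD as line and bar. Id4, Elf3 and Sox9 separate the groups without overlap among the tested factors, and Elf5 and Trp63 have normalized counts of at most 5.92 in any library.

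Ly6a checks the labels, and its counts summed to 709 in 4T1-Sca1+ and to 7 in 4T1-Sca1- cells. Library totals lay between 15041995 and 16968215 counts for 4T1-Sca1+ and between 13561804 and 16142836 for 4T1-Sca1- cells. Epithelial markers were abundant in both groups, with normalized counts summed over 6 keratin and adhesion genes of 53622 to 58580 and 53150 to 57285. The similar sums do not mean that each gene was unchanged, as 2 of the 6 were called higher and 2 lower. Of 15 leukocyte markers 10 were analysed here, of which 6 had at most 10 counts in every library. The leukocyte antigen CD45 gene Ptprc averaged 2.32 and 0.535, too scarce to test, but its groups did not overlap. The 4 leukocyte markers tested (Cd68, Cd74, Csf1r and S100a8) were all higher in 4T1-Sca1+ cells, against 31.3% of all genes tested. The summed normalized counts of the list were 409 to 478 against 231 to 274. The fibroblast list, with 7 of 9 analysed, summed to 635 to 671 against 395 to 468, most of it Pdgfra. Of 3 fibroblast markers tested, 2 were higher, namely Pdgfra and Col1a1 (47.6 and 28.6), and Postn (24.7 and 24.2) was not called. Dcn (11.4 and 1.06) and Pdgfrb (6.19 and 0.257) were too scarce to test but did not overlap between the groups. Groups did not overlap for 54.7% of all genes tested. Fap, also too scarce to test, ran the other way (0.958 and 2.96), and Col1a2 stood at 4.43 and 4.61. The endothelial list, with 5 of 7 analysed, summed to 33.8 to 40.9 against 42.3 to 63.9. In it Tie1, the 1 gene tested, was lower (25.3 and 39.0), while Pecam1 (5.01 and 1.04) was too scarce to test but did not overlap. The part of such cells in the differences below was not tested, and in bulk samples fewer expressing cells and less RNA per cell cannot be told apart.

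Upstream sequences are shown for Id4, the factor with the largest difference, for Klf4, which was lower, and for Bmi1, which was not called, so that their base composition can be read beside the values. The windows are the 250 bases before an annotated RefSeq transcript start (GRCm38.p6), printed on the gene's strand. RefSeq windows matched 6 of the 10 factors (Elf5, Elf3, Gata3, Id4, Klf4 and Bmi1). Capitals mark the GC box GGGCGG on either strand, the core letters read by SP and KLF zinc finger factors, and touching or overlapping matches run together.
Id4 (chr13:48260866-48261115, plus strand): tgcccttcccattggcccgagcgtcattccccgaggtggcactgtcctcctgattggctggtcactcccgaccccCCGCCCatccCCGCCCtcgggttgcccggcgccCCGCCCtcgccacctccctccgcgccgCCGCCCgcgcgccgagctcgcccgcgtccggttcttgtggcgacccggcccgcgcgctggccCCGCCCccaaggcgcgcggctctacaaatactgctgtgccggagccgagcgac
Klf4 (chr4:55532476-55532725, minus strand): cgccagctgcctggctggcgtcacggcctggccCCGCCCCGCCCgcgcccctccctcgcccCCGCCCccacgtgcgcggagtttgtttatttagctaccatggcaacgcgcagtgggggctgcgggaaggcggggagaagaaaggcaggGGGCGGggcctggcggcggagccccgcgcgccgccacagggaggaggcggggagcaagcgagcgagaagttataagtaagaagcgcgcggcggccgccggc
Bmi1 (chr2:18676768-18677017, plus strand): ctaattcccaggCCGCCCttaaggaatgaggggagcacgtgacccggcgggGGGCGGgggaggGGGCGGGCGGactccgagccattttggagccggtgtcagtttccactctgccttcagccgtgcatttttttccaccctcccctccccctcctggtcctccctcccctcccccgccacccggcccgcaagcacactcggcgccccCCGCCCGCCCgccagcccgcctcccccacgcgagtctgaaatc
The Id4 window held 5 GC boxes, the Klf4 window 4 and the Bmi1 window 6. A GC box occurred in 32.7% of all 32851 RefSeq mouse windows of the same length. GC content was 75.6% in the Id4 window, 74% in the Klf4 window and 70.4% in the Bmi1 window, against a median of 52.4% over all windows. The Gata3 window (chr2:9878601-9878850, minus strand) held 2 GC boxes, and neither the Elf3 window nor the Elf5 windows held one. Factors that were higher, lower and not called thus shared these letters, and a match is no evidence of binding.

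Among the luminal factors, Gata3 was modestly higher in 4T1-Sca1+ cells, Elf3 was lower, Ehf was not called and Elf5 was close to absent. Gata3 (ENSMUSG00000015619, GRCm38 chromosome 2, 9857078 to 9890034, minus strand) had normalized counts of 2376, 2605, 2860 and 2646 in 4T1-Sca1+ replicates 1 to 4. The 4T1-Sca1- replicates had 2106, 2432, 1935 and 1994. The groups overlapped through 4T1-Sca1- replicate 2, which lay above 4T1-Sca1+ replicate 1. The means were 2622 ± 198 and 2117 ± 222 (SD, n = 4), a log2 fold change of 0.32 ± 0.07 (SE) with an edgeR adjusted p of 0.000426. Gata3 remained called higher with each library left out in turn, at log2 fold changes of 0.27 to 0.39. A gene on the same strand, 9230102O04Rik, shares 77 exon bases with Gata3 and had 525 counts over all libraries, 2.74% of the Gata3 counts.

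Elf3, an ETS factor of epithelial differentiation, moved in the opposite direction. Elf3 (ENSMUSG00000003051, GRCm38 chromosome 1, 135253575 to 135258568, minus strand) had normalized counts of 466, 481, 449 and 481 in the 4T1-Sca1+ libraries and of 555, 651, 596 and 600.4 in the 4T1-Sca1- libraries. Every 4T1-Sca1+ library lay below every 4T1-Sca1- library. The means were 469 ± 15.4 and 600.4 ± 39.4 (SD, n = 4), and the log2 fold change was -0.34 ± 0.06 (SE, edgeR adjusted p = 0.000122), which is 1.27-fold lower. Groups of normalized counts did not overlap for 54.7% of all genes tested, and among the 8 tested factors this held for 3, namely Id4, Elf3 and Sox9.

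Ehf (ENSMUSG00000012350, GRCm38 chromosome 2, 103263433 to 103303278, minus strand), the closest relative of Elf3 in the set, did not follow it. Its normalized counts were 389, 429, 409 and 422 in the 4T1-Sca1+ libraries and 416, 342, 391 and 389 in the 4T1-Sca1- libraries, and the groups overlapped. The log2 fold change of Ehf was 0.11 with a 95% interval of -0.03 to 0.26 (edgeR adjusted p = 0.174). When the offsets were corrected for transcript GC content, which is 42.4% for Ehf, the log2 fold change was 0.21 and the adjusted p 0.00429, so the call depends on that correction. In the ratio of Elf3 to Ehf counts within a library, a single scaling factor cancels, but a GC correction does not. The log2 ratio was 0.13 to 0.26 in 4T1-Sca1+ cells and 0.41 to 0.93 in 4T1-Sca1- cells. With GC-corrected offsets the log2 fold change of Elf3 was -0.47.

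Elf5 (ENSMUSG00000027186, GRCm38 chromosome 2, 103411688 to 103450989, plus strand) is the neighbor of Ehf, 108409 bases away on the opposite strand. It had counts of 4, 1, 1 and 0 in the 4T1-Sca1+ libraries and of 0, 0, 1 and 0 in the 4T1-Sca1- libraries. The alveolar factor was therefore at or near the detection limit in both fractions, at 6 against 1 count in total, and no fold is given. The genes lie side by side, yet Ehf had 1753 and 1461 counts over the same libraries.

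**Figure D2:**
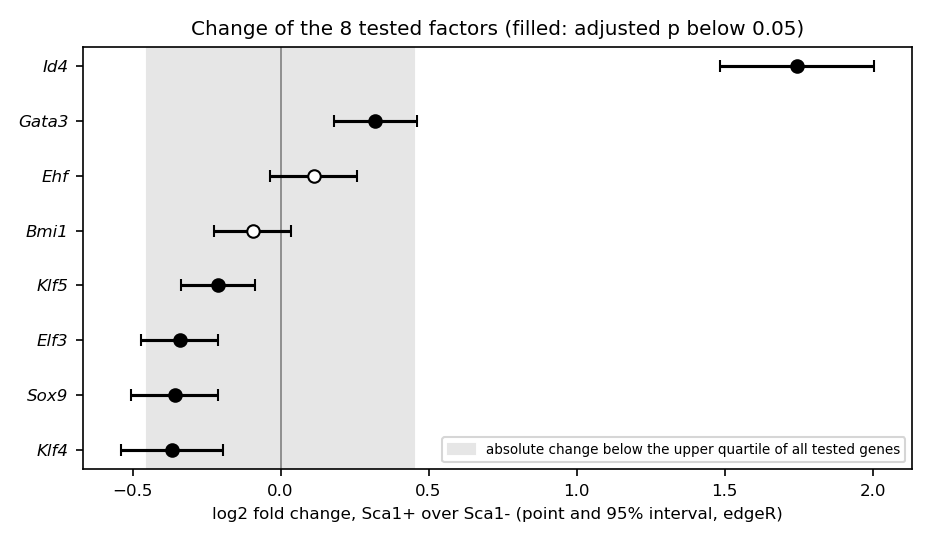
Log2 fold change (4T1-Sca1+ over 4T1-Sca1-, x axis) of the 8 tested factors with its 95% interval, filled where the adjusted p was below 0.05. The grey band covers absolute changes up to 0.45, the upper quartile of all genes tested, and Id4 alone has its point outside it.

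Of the factors linked to the basal layer, Id4 was clearly higher in 4T1-Sca1+ cells and Trp63 was almost undetected. Id4 (ENSMUSG00000021379, GRCm38 chromosome 13, 48261228 to 48266026, plus strand) had normalized counts of 144, 169, 173 and 154 in the 4T1-Sca1+ libraries. The 4T1-Sca1- libraries had 51.6, 39.0, 55.7 and 45.7, so every 4T1-Sca1+ library exceeded every 4T1-Sca1- library. The means were 160 ± 13.0 and 48.0 ± 7.25 (SD, n = 4), a log2 fold change of 1.75 ± 0.12 (SE, 95% interval 1.48 to 2.01, edgeR adjusted p = 1.87e-09). The size of this change exceeded that of 98.1% of all genes tested, while the level of Id4 per kilobase exceeded only 19.2% of them. Over the alternative fits the log2 fold change of Id4 ran from 1.65 to 1.84. The study lists Id4 among the signature genes it chose on these same libraries, so that listing is not independent evidence. The antisense gene A330033J07Rik shares 82 exon bases with Id4 and had 1 count in all.

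Trp63 (ENSMUSG00000022510, GRCm38 chromosome 16, 25683763 to 25892102, plus strand) had counts of 6, 6, 4 and 4 in the 4T1-Sca1+ libraries and of 1, 3, 1 and 1 in the 4T1-Sca1- libraries. Each 4T1-Sca1+ library lay above each 4T1-Sca1- library, but all were at the edge of detection. The totals of 20 and 6 gave a depth-adjusted ratio of 2.97 with an exact 95% interval of 1.15 to 9.05, which covers counting error only. Trp63 failed the low-count filter, and without that filter its log2 fold change was 1.50 ± 0.67 (SE, edgeR adjusted p = 0.0578). On log2 of the deposited normalized values plus 1, limma gave 1.20 with an adjusted p of 0.00956, so the call depends on the method. Krt5 (0.742 and 0), Acta2 (2.58 and 0) and Cnn1 (0.666 and 1.58) were likewise scarce, in mean normalized counts of 4T1-Sca1+ and 4T1-Sca1- cells. Other basal genes were not, such as Krt14 at 550 and 649 and Procr at 1809 and 2202. Of 15 basal and myoepithelial genes analysed, 7 had enough counts to be tested.

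The progenitor and stemness factors Sox9, Klf4 and Klf5 were lower in 4T1-Sca1+ cells, while Bmi1 was not called. The study had already reported lower Klf4 and Sox9 in these cells from its own RNA sequencing, so its report is not independent evidence. Sox9 (ENSMUSG00000000567, GRCm38 chromosome 11, 112782224 to 112787760, plus strand) had normalized counts of 1224, 1360, 1539 and 1382 in the 4T1-Sca1+ libraries. In the 4T1-Sca1- libraries it had 1961, 1879, 1682 and 1585, all above the highest 4T1-Sca1+ value. The means were 1376 ± 129 and 1777 ± 173 (SD, n = 4), with a log2 fold change of -0.36 ± 0.07 (SE, edgeR adjusted p = 0.000258).

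Klf4 (ENSMUSG00000003032, GRCm38 chromosome 4, 55527143 to 55532466, minus strand) had normalized counts of 761, 825, 859 and 979 in the 4T1-Sca1+ libraries and of 1273, 1178, 1032 and 967 in the 4T1-Sca1- libraries. The groups touched where 4T1-Sca1+ replicate 4 lay just above 4T1-Sca1- replicate 4. The means were 856 ± 91.5 and 1112 ± 139 (SD, n = 4), with a log2 fold change of -0.37 ± 0.08 (SE, edgeR adjusted p = 0.000917). Klf5 (ENSMUSG00000005148, GRCm38 chromosome 14, 99298691 to 99315036, plus strand) showed the smallest called difference. Its normalized counts were 813, 849, 892 and 764 in the 4T1-Sca1+ libraries and 968, 1022, 1000 and 885 in the 4T1-Sca1- libraries, with 4T1-Sca1- replicate 4 inside the 4T1-Sca1+ range. The log2 fold change of Klf5 was -0.21 ± 0.06 (SE, edgeR adjusted p = 0.00495), from means of 830 ± 54.1 and 969 ± 60.1 (SD, n = 4).

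Bmi1 (ENSMUSG00000026739, GRCm38 chromosome 2, 18677018 to 18686629, plus strand) had normalized counts of 902, 994, 828 and 950 in the 4T1-Sca1+ libraries and of 1050, 917, 1012 and 979 in the 4T1-Sca1- libraries. The groups overlapped, and the log2 fold change of -0.09 had a 95% interval of -0.22 to 0.04 (edgeR adjusted p = 0.197). With GC-corrected offsets the sign turned, at a log2 fold change of 0.026. Bmi1 had the lowest transcript GC content of the set, 40.2%, and Elf3 the highest, 56.5%. The interval excludes a change of the size of Sox9 or Klf4 in either direction in the uncorrected fit.

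Levels between factors were compared as CPM per kilobase of exon, that is counts scaled to the TMM-adjusted library total and divided by exon length. Gata3 was the most abundant factor in both fractions, at 43.3 in 4T1-Sca1+ and 35.0 in 4T1-Sca1- cells, followed by Sox9 at 21.9 and 28.3 and Klf4 at 18.5 and 24.0. Next came Bmi1 at 15.2 and 16.4 and Elf3 at 13.9 and 17.8, which changed places between the fractions, then Klf5 at 10.5 and 12.3. Ehf stood at 4.86 and 4.54 and Id4 at 2.73 and 0.820, and Trp63 and Elf5 were below 0.05 in each library. In 4T1-Sca1+ cells the library ranges of neighbors overlapped between Sox9 and Klf4, Klf4 and Bmi1, Bmi1 and Elf3, and Trp63 and Elf5. In 4T1-Sca1- cells they overlapped between Sox9 and Klf4, Elf3 and Bmi1, and Trp63 and Elf5. The order of the remaining neighbors exceeded the spread between libraries, so Gata3 ranked above Sox9 and Id4 ranked below Ehf in both fractions.

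Ratios taken within each library do not depend on the scaling factor of that library, and they are described without a test. They are not corrected for GC content. The log2 ratio of Sox9 to Gata3 counts was -0.96 to -0.89 in 4T1-Sca1+ cells and -0.37 to -0.10 in 4T1-Sca1- cells. The log2 ratio of Id4 to Gata3 counts was -4.10 to -3.95 and -5.96 to -5.12 in the same order. Neither ratio overlapped between the groups. Both use the counts behind the calls above and share Gata3, so they are not separate evidence. How often other gene pairs separate was not counted. Trp63 to Gata3 did not overlap either (-9.56 to -8.76 and -11.1 to -9.63), on at most 6 Trp63 counts per library. The SDs of Sox9/Gata3 and Id4/Gata3 were 0.027 and 0.064 among 4T1-Sca1+ and 0.12 and 0.36 among 4T1-Sca1- libraries. Id4 had fewer counts in the latter (38 to 54 against 158 to 176). The log2 ratio of Klf4 to Klf5 overlapped, at -0.095 to 0.36 and 0.046 to 0.39. Its SD ran the other way, at 0.21 in 4T1-Sca1+ and 0.15 in 4T1-Sca1- libraries.

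**Figure D3:**
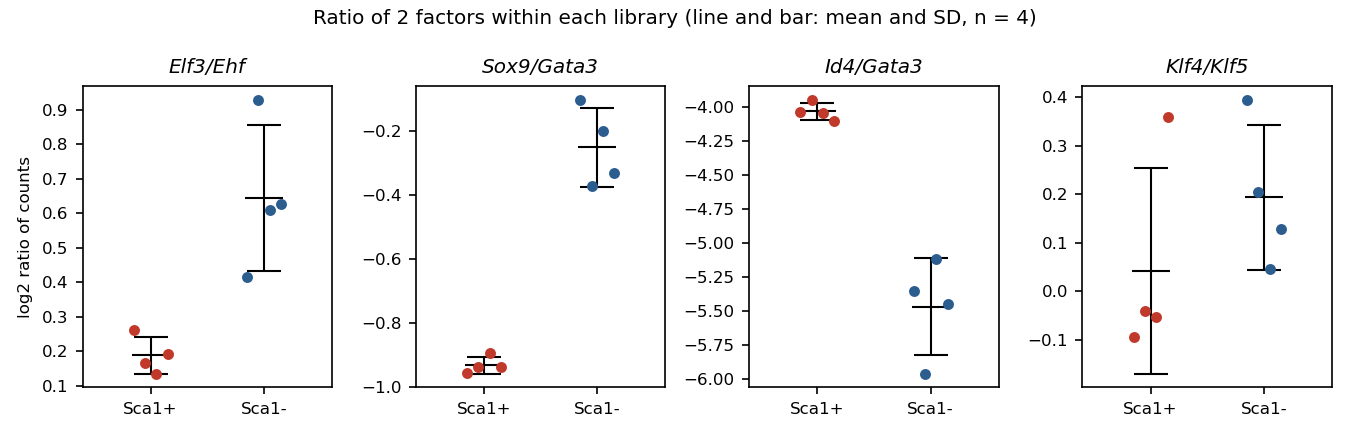
Log2 ratio of the counts of 2 factors within each library (y axis, a separate scale in each panel) in Sca1+ (red) and Sca1- (blue) libraries, with mean and SD, n = 4. Elf3/Ehf, Sox9/Gata3 and Id4/Gata3 do not overlap between the groups, and Klf4/Klf5 does because Sca1+ replicate 4 lies at 0.36.

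Each factor was then set beside its gene family. Of all genes tested 31.3% were higher and 30.2% lower, and the family counts are given beside these shares. Id4 was the least abundant ID gene in both fractions, with 2.25% ± 0.27 of the summed level per kilobase of the 4 ID genes in 4T1-Sca1+ and 0.708% ± 0.12 in 4T1-Sca1- cells (SD, n = 4). All 3 relatives were called: Id1 was higher (930 ± 63.4 against 631 ± 78.9 normalized counts, log2 fold change 0.57), Id2 was higher (0.38) and Id3 was lower (-0.45). Sox9 ranked behind Sox4 as the next most abundant of 10 SOX genes, and its share was 21.4% ± 0.56 against 32.2% ± 1.2. Of 5 other SOX genes tested, 3 were higher and none was lower: Sox15 (174 ± 20.5 against 67.8 ± 16.7, log2 fold change 1.38), Sox12 (0.56) and Sox4 (0.30). Sox13 (-0.26) was not called, but was called lower with GC-corrected offsets.

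Klf4 ranked 3 among 15 KLF genes in both fractions, and of 11 other members tested 3 were higher and 5 lower. The lower count was 3 without 4T1-Sca1+ replicate 1 or without 4T1-Sca1- replicate 1. Klf6, a stress-responsive KLF factor, led the family and had the largest difference, at 2262 ± 146 against 6013 ± 450 normalized counts (log2 fold change -1.40). Klf2 (-1.02) and Klf8 (-0.39) were lower as well. The call of Klf8 was lost with GC-corrected offsets, and at log2 fold changes of -0.37 to -0.33 without 4T1-Sca1+ replicate 1 or 4 or 4T1-Sca1- replicate 1 or 3. Klf9 (0.52), Klf13 (0.48) and Klf3 (0.30) were higher. Of the summed level per kilobase of the family, Klf6 held 24.5% in 4T1-Sca1+ and 44.0% in 4T1-Sca1- cells. Beside it Klf4 held 13.3% and 11.7%, and Klf5 7.56% and 5.99%, so both had a larger share where their own level was lower. Klf6 and Klf2 are on the signature list that the study chose on these libraries.

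Of the 22 ETS genes, Elf3 held rank 7 in 4T1-Sca1+ and rank 6 in 4T1-Sca1- cells, and Ehf ranks 15 and 14. Among 15 other ETS genes tested, 7 were higher and 5 lower. The higher ones were led by the PEA3 group, Etv1 (381 ± 33.3 against 197 ± 25.0 normalized counts, log2 fold change 0.97), Etv4 (0.69) and Etv5 (0.59). The ELF-related Elf1 (-0.39) and the founding members Ets1 (-0.36) and Ets2 (-0.36) were lower. Gata3 made up 89.9% of the summed level of 4 GATA genes in 4T1-Sca1+ and 86.7% in 4T1-Sca1- cells, and neither Gata2 (0.37) nor Gata4 (-0.16) was called, although Gata4 was called lower with GC-corrected offsets and 1 GATA gene was called lower without 4T1-Sca1+ replicate 3.

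Bmi1 is 1 of 19 subunits or partners of Polycomb repressive complex 1 that were measured, and ranked 4 among them in both fractions. Of the other 18, 11 were higher and 4 lower. Among the chromobox readers, Cbx2 (672 ± 73.4 against 355 ± 20.7 normalized counts, log2 fold change 0.93), Cbx6 (0.65), Cbx8 (0.57) and Cbx7 (0.55) were higher. The ring finger relatives of Bmi1 were split, with Pcgf1 (0.47), Pcgf2 (0.32) and Pcgf3 (0.30) higher and Pcgf5 (-0.54) and Pcgf6 (-0.40) lower. Phc3 (-0.28) and the ubiquitin ligase Rnf2 (-0.24) were lower. Phc2, the most abundant subunit, was called higher (0.23), but not with GC-corrected offsets. Bmi1 held 5.77% of the summed level in 4T1-Sca1+ and 7.31% in 4T1-Sca1- cells.

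**Figure D4:**
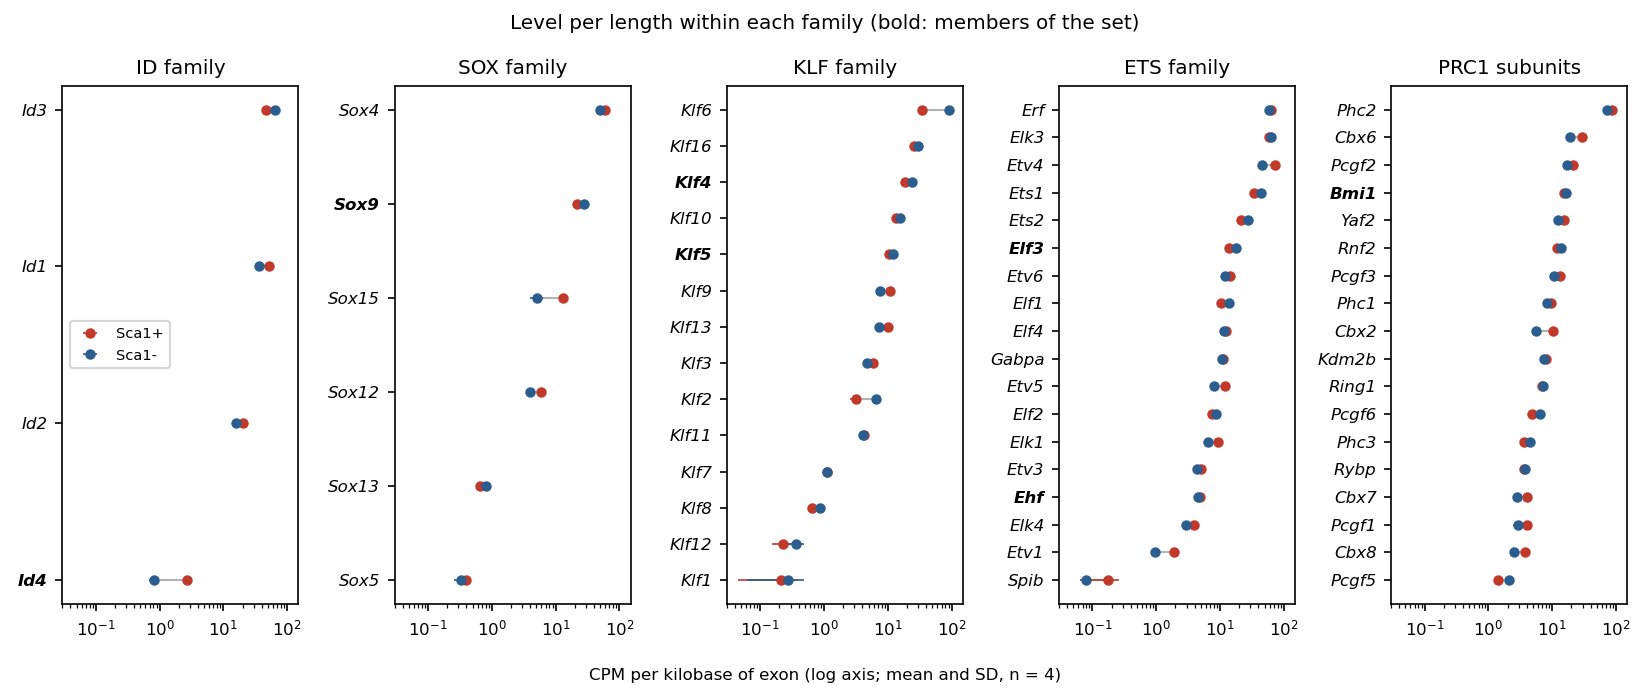
Level in CPM per kilobase of exon (x axis, log scale) of the genes of 5 families in Sca1+ (red) and Sca1- (blue) cells, as mean and SD of 4 libraries, for reported genes at 0.1 or more in either group, with the factors of the set in bold. Id4 stands lowest among the ID genes and Klf6 shows the widest separation in the KLF family.

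Genes linked to the same lineages, families and complexes were called in both directions. Over 103 related genes tested, each counted once, 40 were higher, 36 lower and 27 not called, with a median log2 fold change of 0.08. The shares over all genes tested, 31.3% higher and 30.2% lower, also stand beside the counts of each list below. Of 8 luminal factors tested, 2 were higher and 2 lower (median log2 fold change 0.09, and 0.04 with GC-corrected offsets). Xbp1, the secretory stress factor, was higher at 867 ± 25.7 against 548 ± 29.8 normalized counts (log2 fold change 0.67), and Cbfb, the partner of RUNX factors, was marginally higher (0.15). The call of Cbfb was lost without 4T1-Sca1+ replicate 1 or 2 or 4T1-Sca1- replicate 2 or 3, at log2 fold changes of 0.12 to 0.13. The pioneer factor Foxa1 (-0.47) and the epithelial factor Grhl2 (-0.20) were lower. Esr1, the estrogen receptor, was not called, at 169 ± 8.30 against 181 ± 22.3 normalized counts.

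Luminal progenitor and alveolar genes held the widest spread of any list. Of 9 tested, 5 were higher and 3 lower (median log2 fold change 0.31, and 0.17 with GC-corrected offsets). The higher count was 4 with DESeq2 size factors, the DESeq2 test or limma on the deposited table. It was also 4 without 4T1-Sca1+ replicate 4 or without 4T1-Sca1- replicate 1, 3 or 4. Lactoferrin, Ltf, stood at 206 ± 27.6 against 20.4 ± 4.59 normalized counts (log2 fold change 3.33), and the alveolar factor Cebpb at 1464 ± 171 against 670.3 ± 111 (1.13). With GC-corrected offsets the log2 fold change of Cebpb was 0.70. Mfge8, a milk fat globule protein, was higher too (0.37). In contrast Btn1a1, another milk fat globule protein, stood at 80.3 ± 9.51 against 447 ± 17.1 (-2.46), and the integrin Itga2 at 914 ± 66.1 against 2006 ± 69.9 (-1.12), while Cd14 was lower by less (-0.29). Ltf, Btn1a1 and Itga2 are on the signature lists that the study chose on these libraries.

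Of 7 basal and myoepithelial genes tested, none was higher and 3 were lower (median log2 fold change -0.18, and -0.34 with GC-corrected offsets). Without the low-count filter 1 basal gene was called higher and 4 lower. With GC-corrected offsets, or without 4T1-Sca1+ replicate 3, 4 were lower. The lower ones were Egfr (100.2 ± 9.27 against 145 ± 6.17 normalized counts, log2 fold change -0.52), the protein C receptor gene Procr (-0.27) and the basal keratin Krt14 (-0.23). The p63 target genes, of which 14 were tested, had 2 higher and 9 lower members (median log2 fold change -0.34). The lower ones included Sfn (1103 ± 30.9 against 2404 ± 190 normalized counts, -1.11) and the desmosome gene Dsp (-0.71). The cell cycle inhibitor Cdkn1a (1.05) and Fgfr2 (0.65) were higher. Trp63 itself was near the detection limit in every library. Many of these genes also answer to p53 and to other factors, and the part of any factor in these differences was not tested. Sfn is on the study's own signature list. In the separate p53 family list, Trp53 was lower (1201 ± 67.2 against 1416 ± 80.2, -0.23).

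Of 5 stemness genes tested, 2 were higher and 2 lower. The RNA-binding factor Msi2 was higher at 620.0 ± 53.8 against 486 ± 25.5 normalized counts (log2 fold change 0.37), and the intermediate filament gene Nes (-0.29) and Myc (-0.28) were lower. Aldh1a1, the other one called higher, averaged only 23.8 and 12.3. Among 7 binding partners tested, 3 were higher and 2 lower, and without 4T1-Sca1+ replicate 1 the higher count was 5. The GATA cofactors diverged: Zfpm1 was higher (1606 ± 221 against 929 ± 57.2 normalized counts, 0.80) and Zfpm2 was lower (56.1 ± 6.89 against 122 ± 16.5, -1.11). With GC-corrected offsets the log2 fold change of Zfpm1 was 0.37. Of the E proteins, which ID proteins bind, Tcf4 (0.32) and Tcf3 (0.28, a call lost with GC-corrected offsets) were higher and Tcf12 (-0.20) was lower.

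**Figure D5:**
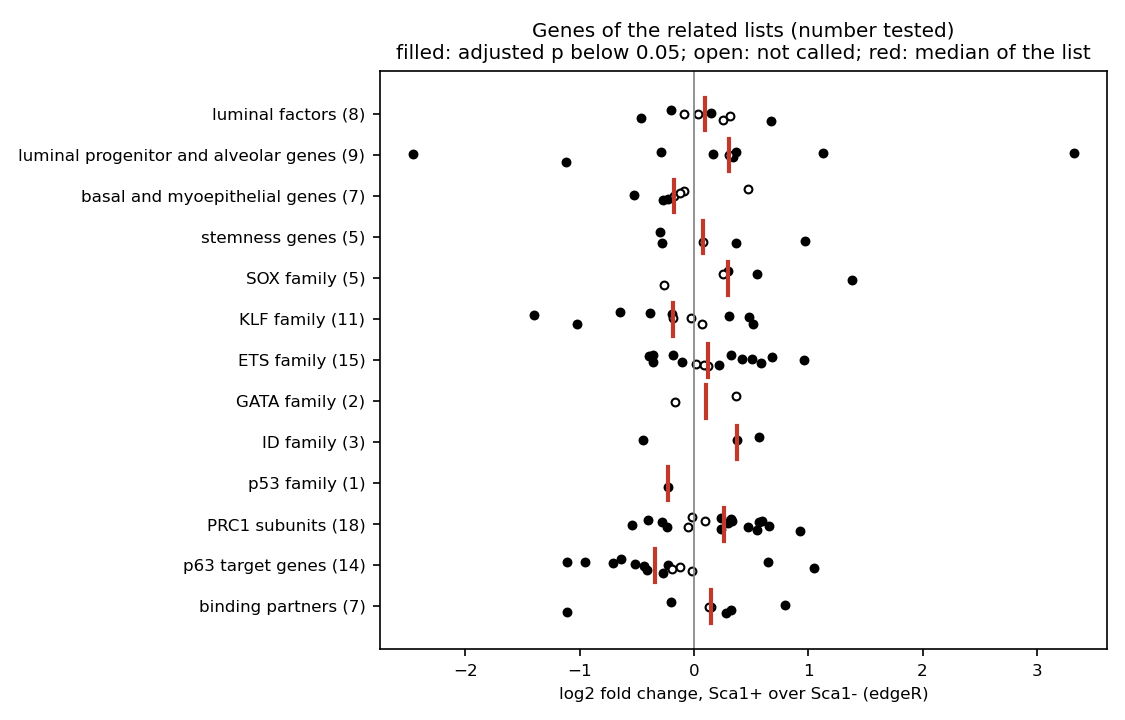
Log2 fold change (4T1-Sca1+ over 4T1-Sca1-, x axis) of every tested gene in 13 related lists (y axis, number tested in parentheses), filled where called, with the list's median in red. The medians run from -0.34 for p63 target genes to 0.38 for the ID family, and most lists hold called genes on both sides of 0.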

How the data were processed

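Libraries of total RNA (TruSeq) from 4 4T1-Sca1+ and 4 4T1-Sca1- samples were read on an Illumina NextSeq. The submitters' processing notes name cutadapt 1.16, STAR 2.5.3a and GRCm38 (mm10). The counting tool, its annotation and its use of strand are not given in the sources used here. The authors deposited raw counts per Ensembl gene and a table of normalized signal for 15372 genes, which equals the counts divided by DESeq2 size factors and leaves out 969 genes with a single count in all. Names, positions, exon lengths and GC content came from GENCODE M21 (16202 identifiers matched, 139 not).

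Counts were tested with edgeR 4.0.16 in R 4.3.3 (filterByExpr, TMM, quasi-likelihood test, two-sided, Benjamini-Hochberg over 11717 genes; 4624 genes were not tested). Normalized counts are counts divided by size factors. A count of at most 3 in each library of a group was set as the floor, but no filter or test used it. By this measure Trp63 lay at the floor in 4T1-Sca1- cells. The fit was run on simulated data in which far fewer genes changed than were called here, so that run does not measure its accuracy on these libraries. Alternatives were DESeq2 size factors, library totals alone, GC-corrected offsets, testing all genes, a minimum of 10 counts per gene in each library, the DESeq2 1.42.0 test, limma-voom (limma 3.58.1), limma on log2 of the deposited signal plus 1, the replicate block, an adjusted p below 0.01, a minimum absolute log2 fold change of 1, and leaving out each library.

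The members and the related lists were chosen with earlier results of these data known. Named from each list were up to 3 called genes with the highest and 3 with the lowest log2 fold change at a mean normalized count of at least 50, and some of these genes are not reported here. Esr1, Aldh1a1, Sox13, Cbx7, Cbx8, Pcgf1, Pcgf2, Pcgf3, Rnf2, Phc2, Gata2, Gata4 and the scarce basal genes were added after their values were seen. Duplicate PCR reads could not be told from separate molecules, so intervals on counts cover counting error only.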

Additional observations from a re-analysis of the deposited data

Results flagged for a closer look

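In 3 of 30 groups of 4 libraries (each factor's normalized counts and each within-library ratio), 1 library stood apart from the rest by Dixon's criterion, where chance gives about 1.5. In 4T1-Sca1- replicate 3 the normalized count of Elf5 was 1.11, against 0 in the other libraries of that group, which is a single count. In 4T1-Sca1- replicate 2 the normalized count of Trp63 was 3.08, against 0.955 to 1.14 in the others, which is 3 counts against 1. The log2 ratio of Klf4 to Klf5 was 0.358 in 4T1-Sca1+ replicate 4, against -0.0955 to -0.0408 in the other 4T1-Sca1+ libraries. That library had the highest Klf4 and the lowest Klf5 of its group, and both genes stayed called lower when it was left out.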

How the results depend on the processing

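The 6 calls among the factors kept their direction and their side of the threshold under every alternative fit and with every library left out, as long as no minimum fold was asked for. Asking for a change of 1 or more on the log2 scale left 1 factor higher (Id4) and 0 lower, 612 genes higher and 103 lower, and 4 related genes higher and 6 lower. GC-corrected offsets turned Bmi1 to 0.0256 and called Ehf higher at 0.21, for 3 factors higher and 4 lower. The limma fit on the deposited table also gave 3 higher, with Trp63 at 1.20. The median of luminal progenitor and alveolar genes was 0.22 and 0.21 without 4T1-Sca1+ replicates 1 and 2, respectively, and 0.17 with GC-corrected offsets. The median of basal genes was -0.28 without 4T1-Sca1- replicate 1, -0.12 without 4T1-Sca1+ replicate 1, -0.13 with library totals alone and -0.34 with GC-corrected offsets. Without the low-count filter the SOX median was 0.66, and the p63 target median was -0.24 there and on the deposited table and -0.30 with library totals alone. The cause was not tested. Library totals alone raised the share of higher among called genes from 50.9% to 58.0% and shifted the median gene by 0.043. Leaving out a library gave 3397 to 3642 genes higher and 3286 to 3548 lower. Same-numbered libraries deviated together with r between -0.15 and 0.0957, so the numbers are not taken as pairs. The replicate block gave 3605 genes higher and 3452 lower, with 2 factors higher and 4 lower. Among the factors depth limits Trp63 and Elf5, and 103 of the 131 related genes analysed had enough counts to be tested.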
